A study of Bos taurus with 6 samples.

Results

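The loci described here are the small nucleolar RNAs and the other structured RNAs that the bovine gene table names only by an accession of the Rfam database of RNA families. Of the 2769 entries with such a name, 1008 were taken by their accession after leaving out 19 accessions of other small RNA families (1761 entries), out of 47249 genes in all. They belong to 384 Rfam accessions, of which 248 have 1 locus, and the rule that picked them uses names and no measured value, although it was set with results of these data known. By the known identity of the families, 301 loci were box C/D snoRNAs, 423 box H/ACA snoRNAs, 31 small Cajal body RNAs (scaRNAs), 170 elements of long non-coding RNAs and 83 stayed without a class. Sequences of the loci were not analysed here.

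Box C/D snoRNAs guide the methylation of the ribose of other RNAs, and box H/ACA snoRNAs guide the conversion of uridine to pseudouridine, mostly in ribosomal RNA. scaRNAs do the same for the spliceosomal RNAs in the Cajal body, a nuclear compartment, while U3, U8 and U13 are snoRNAs of ribosomal RNA processing. Most vertebrate snoRNAs are cut out of introns of host genes, many of which encode ribosomal proteins and translation factors. The Rfam elements of long non-coding RNAs are conserved stretches of much longer transcripts, such as MALAT1, NEAT1 and H19.

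The libraries hold RNA of testis, depleted of ribosomal RNA, from untreated Wandong cattle. There were 3 calves of 3 months, which were immature, and 3 bulls of 3 years, which were mature, and each animal gave 1 library. The values are FPKM (fragments scaled to transcript length and library size), a level per length, and no counts were used, so the depth behind a value is unknown. Before library construction the RNA was cut into pieces longer than most of these loci, and how the recovery of such pieces bears on the FPKM of short features was not tested. Germ cell markers of the stages after meiosis (PRM1, TNP1, TNP2, ACRV1 and SPACA1) summed to 12925 to 14641 FPKM in bulls and to 0.810 to 2.57 in calves. In such bulk samples, fewer cells of a type and less RNA per cell cannot be told apart.

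The library labelled calf 3 did not carry the marker levels of the other calves. Its 6 Sertoli cell markers summed to 14.8 FPKM against 1786 in calf 1 and 1456 in calf 2, with 3 of 6 at 0, and its 5 Leydig cell markers summed to 0.484 against 1398 and 1119, with 2 of 5 at 0. Markers of glia and neurons (MBP, MOBP, MOG, GFAP and SNAP25) summed to 7862 FPKM in calf 3 and to 4.88 to 9.85 in the other 5 libraries. The label of this library is therefore in doubt, and the counts and the loci described at length are given with and without it.

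Most loci were at low levels. In all 6 libraries 183 of the 1008 were listed at 0, and 825 were above 0 in at least 1, with 660 to 697 above 0 per library. A gene was tested where 3 or more of the 6 libraries reached 1 FPKM, which 18115 genes did, and 217 of the loci (21.5%) were among them. A locus could thus pass through the libraries of 1 group alone, and the call of such a locus is not independent of the filter. Of the loci with an own entry of small RNA in the RefSeq annotation and only 1 transcript, 147 of 546 were tested, against 17 of 301 without such an entry. The share tested was 35.2% for box C/D snoRNAs, 18.0% for box H/ACA snoRNAs, 35.5% for scaRNAs, 11.2% for long non-coding RNA elements and 6.02% for loci without a class.

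What a row of the table holds differed between loci. In 847 rows the annotated Rfam transcript was the only one, and they are called single rows. In the other 161 rows, called merged rows, longer assembled transcripts had been added to the locus, so that the level of the row need not be that of the small RNA. Single rows can also hold reads of longer RNA over the same bases, such as unspliced RNA of a containing gene. Such reads were not separated from those of the small RNA. Of the 164 single and 53 merged rows tested, 37 of the merged ones drew under 15% of their FPKM from the annotated Rfam transcript, and 7 drew over 80%.

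Compared with the calves, the bulls had lower levels of many snoRNA and scaRNA loci. A limma fit across all genes on log2(FPKM + 1) called 62 of the 217 tested loci lower in bulls (28.6%) and 13 higher (5.99%), where a call needs a Benjamini-Hochberg adjusted p under 0.05 and a log2 change of 1 or more either way. Over all genes tested, 9.61% were called lower and 35.7% higher, and the median log2 fold change was 0.43 against -0.76 for the loci. Without calf 3, 101 loci (46.5%) were called lower and 16 (7.37%) higher, beside 13.6% and 37.9% of all genes. Without bull 1, 41 were called lower and 13 higher, beside 1218 and 6100 of 18115 genes. Quantile normalization moved the median of all genes to -0.26. After it, 156 loci were called lower and 4 higher, beside 4538 and 3827 of 18115 genes. With no filter, 58 of 825 loci were called lower and 18 higher, beside 1581 and 6984 of 44657 genes. Of the 62 loci called lower, 59 were also called lower without calf 3. All 3 bulls lay below all 3 calves at 114 loci (52.5%), beside 21.3% of all genes tested.

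The direction went with the kind of row. Among single rows, 51 of 164 were called lower and 0 higher, and 150 had a log2 fold change below 0. Without calf 3, 85 (51.8%) were called lower and 1 (0.610%) higher, beside 13.6% and 37.9% of all genes. Among the 53 merged rows, 11 were called lower (20.8%) and 13 higher (24.5%), beside 9.61% and 35.7% of all genes, and 16 and 15 without calf 3. Every locus called higher in bulls with all libraries was thus a merged row, although the share of merged rows called higher was below that of all genes. In those 13 rows the annotated Rfam transcript held at most 13.2% of the FPKM and reached at most 0.642 FPKM in any library, while the rows spanned 10166 to 234046 bases. None of the 13 annotated transcripts had enough signal to be tested.

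**Figure D1:**
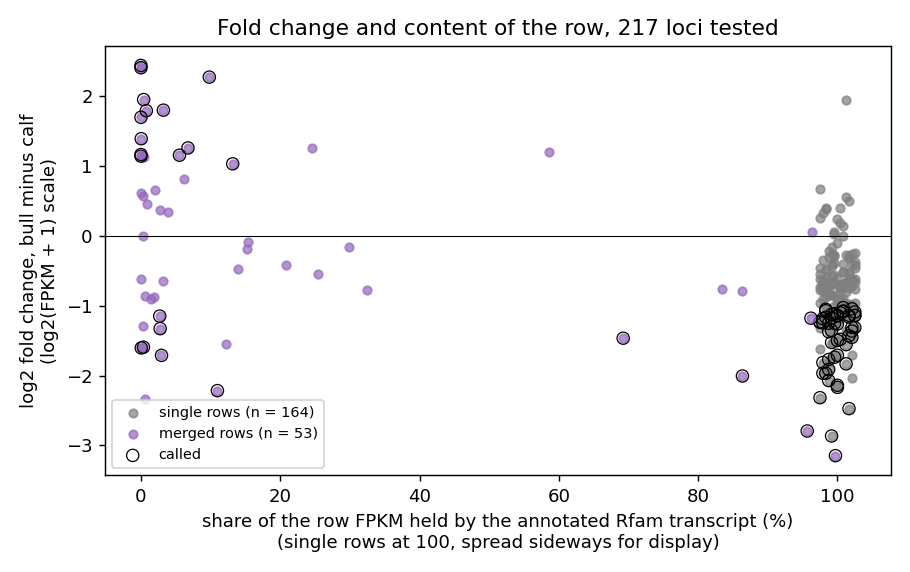
Log2 fold change (bull minus calf, vertical axis) of the 217 tested loci against the percent of the row's FPKM that its annotated Rfam transcript holds (horizontal axis). Grey points are the 164 single rows, purple points the 53 merged rows, and black rings mark calls, of which the 13 above 0 all lie at a share of at most 13.2%.

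The table of transcripts gave the annotated Rfam transcripts on their own. Of these, 176 passed the same filter, 12 of them from merged rows, and 56 (31.8%) were called lower in bulls and 1 (0.568%) higher, beside 9.37% and 34.8% of all 23212 transcripts tested. Without calf 3, 93 were called lower and 2 higher, beside 13.1% and 36.1% of all transcripts. The single one called higher was a transcript of RF01225 (ENSBTAG00000045327, chr25:1522006-1522132) inside RPS2, a ribosomal protein gene. It was at 0.0223, 0.0550 and 0.983 FPKM in calf 1 to calf 3 and at 2.14, 2.89 and 4.10 in bull 1 to bull 3, a log2 fold change of 1.62 (adjusted p = 0.00727). This transcript passed the filter through the bulls alone, so its call is not independent of the filter. Its whole row, with the longer transcripts, had a log2 fold change of -0.65 (adjusted p = 0.205), and of -1.10 without calf 3 (adjusted p = 0.000232).

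The sum over all 1008 loci was lower in bulls. It was 19691, 21141 and 9379 FPKM in calf 1 to calf 3 and 5062, 4610 and 5018 in bull 1 to bull 3. The mean was 16737 ± 6414 in calves and 4897 ± 250 in bulls (SD, n = 3 each), with p = 0.1 in an exact two-sided permutation test, the smallest p that 20 labelings allow. Without calf 3 the bulls were lower by 15519 on average, and the exact permutation p was 0.2, the smallest that 3 against 2 libraries allow. In calf 3, 1 locus, the MALAT1 element RF01871, held 51.1% of the sum, and the sum without this locus alone was not tested. Without the 5 highest loci, RF01871 among them, the sums were 6574, 8013 and 2850 FPKM in calf 1 to calf 3. In bull 1 to bull 3 they were 2027, 1873 and 2083 (exact permutation p = 0.1). As a share of all FPKM of a library, the loci held 1.60% to 1.92% in calves and 0.598% to 0.685% in bulls, again without overlap (exact permutation p = 0.1). That total is no steady scale, as it includes the Rfam loci of the accessions left out. Those summed to 697489, 717826 and 278394 FPKM in calf 1 to calf 3 and 341484, 339187 and 300601 in bull 1 to bull 3. Calf 1 and calf 2 lay above every bull there too, and calf 3 below every bull (exact permutation p = 0.4). The 1008 loci, rescaled to genes without Rfam names, held 11861 to 22243 in calves and 4092 to 4454 in bulls (permutation p = 0.1). Over single rows alone, calf 3 with 3886 FPKM lay below bull 1 (4434), bull 2 (3907) and bull 3 (4269), and the exact permutation p was 0.4. The 10 loci with the highest mean held between 74.99% and 84.4% of the sum in each library.

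scaRNAs made up most of that sum in calf 1, calf 2 and the bulls. Their 31 loci summed to 14361 and 14670 FPKM in calf 1 and calf 2, to 2318 in calf 3 and to 3108 to 3519 in bulls. At all 8 scaRNA loci with a mean FPKM of at least 50, calf 1 and calf 2 were above every bull, and at 5 of the 8 calf 3 was below every bull. With all libraries 3 of 11 tested scaRNA loci (27.3%) were called lower in bulls and 1 higher, and without calf 3, 8 (72.7%) were called lower, beside 9.61% and 13.6% of all genes. The 3 calls did not hold in every fit, as 1 was left without calf 1 and 0 without calf 2 or without any 1 of the bulls. Their median log2 fold change was -1.10 with all libraries and -2.01 without calf 3.

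The highest locus was SCARNA10 (RF01296, ENSBTAG00000044853, chr5:103893410-103893731), inside NCAPD2, which encodes a condensin subunit. It was at 7146, 5472 and 926 FPKM in calf 1 to calf 3 and at 1378, 1268 and 1320 in bull 1 to bull 3. Calf 3 was below all bulls, and the log2 fold change of -1.32 ± 0.89 (SE) did not pass the test (adjusted p = 0.252), whereas without calf 3 it was -2.24 (adjusted p = 7.61e-05). SCARNA7 (RF01295, ENSBTAG00000045275, chr1:106970727-106971049), inside the importin gene KPNA4, followed with 2708, 3527 and 473 FPKM in calves and 1106, 940 and 1050 in bulls (adjusted p = 0.515 with and 0.00029 without calf 3).

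SCARNA2 (RF01268, ENSBTAG00000045530, chr3:34281165-34281597) was contained in no gene of the table and is known as a scaRNA transcribed on its own. Its levels were 1061, 1551 and 247 FPKM in calves and 161, 151 and 182 in bulls, so the groups did not overlap. It was called lower in bulls with a log2 fold change of -2.17 ± 0.69 (adjusted p = 0.0385) and of -2.96 without calf 3. SCARNA13 (RF00231, ENSBTAG00000044659, chr21:60400686-60400959) was likewise called lower, from 687, 736 and 177 FPKM in calves to 89.4, 122 and 134 in bulls (log2 fold change -1.97, adjusted p = 0.0313, and -2.64 without calf 3). The third scaRNA called lower was SCARNA17 (RF00492, ENSBTAG00000045039, chr24:49478018-49478160), a merged row whose annotated transcript held 96.2% of the level, with 259, 389 and 193 FPKM in calves and 116, 115 and 124 in bulls (log2 fold change -1.18, adjusted p = 0.0151, and -1.42 without calf 3).

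The remaining high scaRNAs overlapped between the groups through calf 3. SCARNA21 (RF00602, ENSBTAG00000044837, chr19:27589400-27589539, inside the chromatin remodeller gene CHD3) was at 1158, 968 and 70.4 FPKM in calves and 214, 187 and 218 in bulls. SCARNA12 (RF01294, ENSBTAG00000045102, chr5:103495843-103496087, inside the prohibitin gene PHB2) was at 715, 1120 and 95.0 in calves and 209, 172 and 214 in bulls. SCARNA6 (RF00478, ENSBTAG00000044861, chr3:112988386-112988659, inside the autophagy gene ATG16L1) was at 614, 895 and 124 in calves and 240, 142 and 179 in bulls. Their log2 fold changes were -1.06, -1.10 and -1.16 with all libraries (adjusted p = 0.44, 0.346 and 0.24) and -2.36, -2.18 and -2.01 without calf 3 (adjusted p = 2e-05, 0.000195 and 0.000624).

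**Figure D2:**
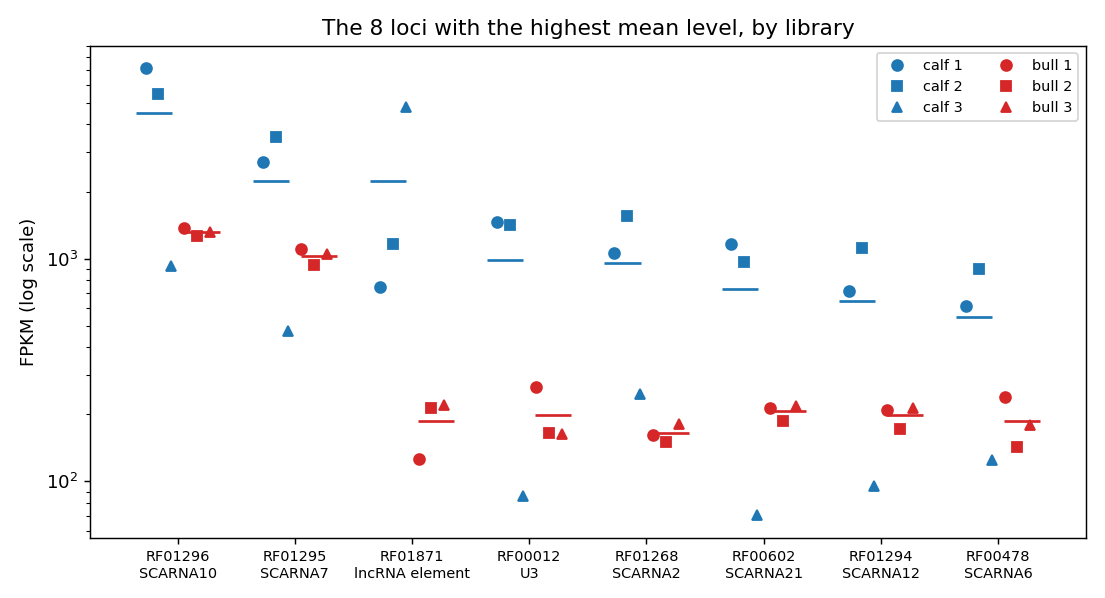
FPKM on a log scale (vertical axis) of the 8 loci with the highest mean level (horizontal axis) in each library. Blue symbols are calves, red symbols bulls and lines the group means, and calf 3 (blue triangles) lies below all bulls at 6 of the loci, above them at SCARNA2 and far above every other library at RF01871.

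The highest U3 locus showed the same split. It (RF00012, ENSBTAG00000028359, chr19:9572654-9572868) was at 1455, 1415 and 85.7 FPKM in calves and 265, 165 and 164 in bulls. Its log2 fold change was -1.54 ± 1.14 (adjusted p = 0.292) with all libraries and -2.89 (adjusted p = 8.03e-05) without calf 3. Of 19 loci of this accession 5 were listed at 0 in every library and 5 were tested, and the highest one held most of the summed level of the accession. This locus and 3 others tested lie within TEX14, a gene of intercellular bridges between germ cells, which was itself at 1.03 to 6.64 FPKM in calves and 47.1 to 61.3 in bulls (log2 fold change 3.56, adjusted p = 0.00166). The log2 fold changes of the 4 U3 loci in TEX14 ran from -1.54 to 0.66, and none was called, whereas without calf 3 they ran from -2.89 to 0.27 and 2 were called lower. The locus at 0.66 (ENSBTAG00000049798) did not share the split, with 2.91, 2.32 and 0.596 FPKM in calves and 4.62, 2.74 and 2.92 in bulls.

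U8 (RF00096, ENSBTAG00000043508, chr19:27820782-27820917) did not share the low bull levels. It was at 6.37, 7.59 and 8.09 FPKM in calves and 9.49, 12.0 and 8.41 in bulls, so that each bull was above each calf by a small margin. The log2 fold change of 0.39 ± 0.19 did not pass the test (adjusted p = 0.138, and 0.0577 without calf 3). The U13 row with the highest level (RF01210, ENSBTAG00000050681, in TRAPPC12) was called higher in bulls, with 0.267, 0.386 and 0.789 FPKM in calves and 1.77, 2.73 and 2.403 in bulls (log2 fold change 1.16, adjusted p = 0.00284), but it was a merged row in which the U13 transcript was listed at 0. That row passed the filter through the bulls alone, so its call is not independent of the filter.

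Of 106 tested box C/D snoRNA loci, 33 (31.1%) were called lower in bulls and 3 (2.83%) higher, all 3 in merged rows. Without calf 3 the counts were 53 (50%) and 3 (2.83%). The median log2 fold change was -0.77 with all libraries and -1.07 without calf 3. Of 76 tested box H/ACA snoRNA loci, 21 (27.6%) were called lower and 5 (6.58%) higher, again all merged rows. Without calf 3 the counts were 32 (42.1%) and 5 (6.58%). Their median log2 fold change was -0.69 over all tested rows, -0.87 over the 56 single rows and 0.39 over the 20 merged rows. Against 9.61% of all genes called lower (13.6% without calf 3), the share called lower exceeded the background in both snoRNA classes. The share called higher was below the 35.7% of all genes (37.9% without calf 3).

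**Figure D3:**
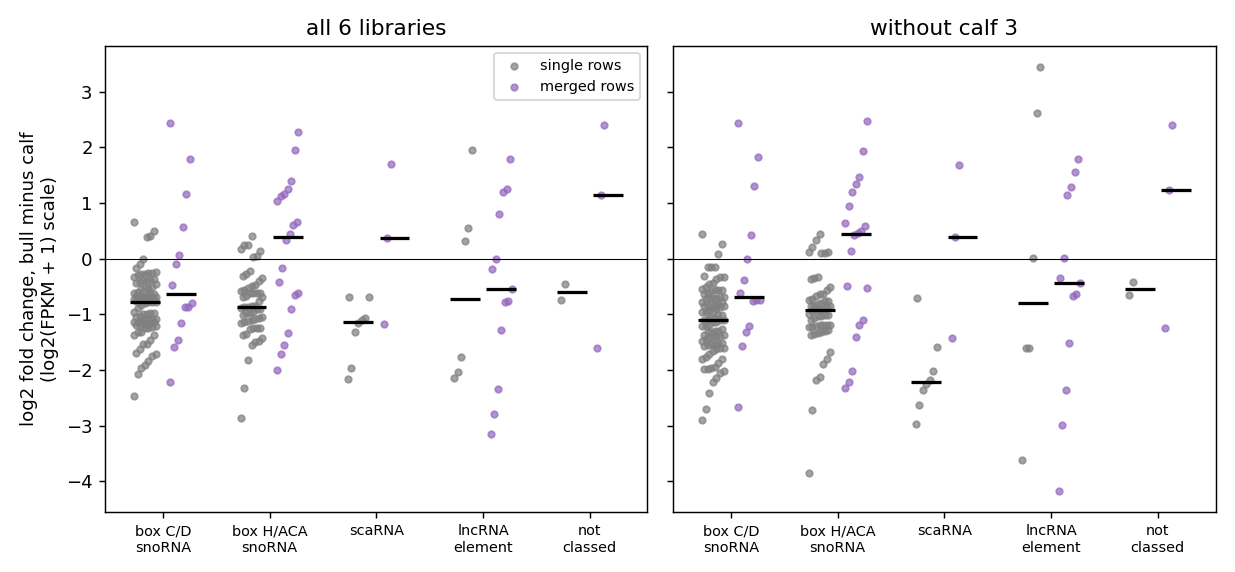
Log2 fold change (bull minus calf, vertical axis) of each tested locus by class (horizontal axis), with all 6 libraries on the left and without calf 3 on the right. Grey points are single rows, purple points merged rows and black bars medians, and the median of the single scaRNA rows moves from -1.13 to -2.21 when calf 3 is left out.

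The largest fall among the snoRNA loci tested was that of a box H/ACA locus. This SNORA73 locus (RF00045, ENSBTAG00000051053, chr2:124917398-124917601), at the SNHG3 entry of RefSeq and within PHACTR4 in the table, was at 83.2, 212 and 16.1 FPKM in calves and 9.15, 8.84 and 6.92 in bulls. Its log2 fold change was -2.87 ± 0.89 (adjusted p = 0.0343), and -3.86 without calf 3 (adjusted p = 0.000193). Another tested SNORA73 locus within PHACTR4 (ENSBTAG00000050344, chr2:124916469-124916672), also a single row, did not share this fall. That locus was at 1.96 to 27.1 FPKM in calves and 4.25 to 25.6 in bulls, so the groups overlapped. It had a log2 fold change of 0.399 (adjusted p = 0.758), and of 0.111 without calf 3. The highest row of this accession (ENSBTAG00000055165) was a merged row that spans the same place, with 207, 335 and 63.5 FPKM in calves and 58.7, 49.9 and 59.2 in bulls, and it was called only without calf 3 (adjusted p = 0.0717 with it and 0.000174 without). SNORA12 (RF00586, ENSBTAG00000043222, chr26:21145467-21145614), inside CWF19L1, fell from 131, 193 and 67.7 FPKM in calves to 23.9, 20.9 and 25.0 in bulls (log2 fold change -2.32 ± 0.39, adjusted p = 0.00298, and -2.72 without calf 3).

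The 3 tested SNORD14 loci inside HSPA8, the constitutive heat shock chaperone gene, were all called lower. The highest (RF00016, ENSBTAG00000043462, chr15:33680867-33680954) was at 8.29, 6.68 and 20.7 FPKM in calves and 1.38, 0.252 and 2.04 in bulls, with a log2 fold change of -2.47 ± 0.51 (adjusted p = 0.00753). Here calf 3 was the highest library, and without it the log2 fold change was -2.02 and all 3 loci were called lower too. HSPA8 itself was called lower, from 402 to 538 FPKM in calves to 182 to 214 in bulls (log2 fold change -1.22, adjusted p = 0.00453). SNORD52 (RF00276, ENSBTAG00000042989) was called lower in a merged row with 27.7, 31.6 and 11.1 FPKM in calves and 4.30, 4.51 and 2.86 in bulls (log2 fold change -2.22, adjusted p = 0.005, and -2.66 without calf 3), of which the annotated transcript held 10.98%.

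Clustered snoRNAs in genes without a symbol were among those called lower. On chromosome 16, 11 loci with snoRNAs such as SNORD47, SNORD74 and SNORD81 lie between chr16:55234666 and 55237908, and 8 of the 10 tested were called lower, with and without calf 3. Of all genes tested, 9.61% were called lower with calf 3 and 13.6% without. The 11 loci summed to 66.8, 65.5 and 47.6 FPKM in calves and 14.5, 22.9 and 20.5 in bulls. SNORD47 (RF00281, ENSBTAG00000042180) was at 11.4, 8.51 and 5.90 FPKM in calves and 1.20, 2.12 and 1.63 in bulls (log2 fold change -1.83, adjusted p = 0.002, and -2.05 without calf 3). In the gene ENSBTAG00000054053 on chromosome 29, which holds SNORD22 and 5 other tested snoRNAs, 2 of 6 were called lower with and without calf 3, among them SNORD22 (RF00099, ENSBTAG00000050374) at 7.80, 5.96 and 4.997 FPKM in calves and 2.99, 1.45 and 2.26 in bulls (log2 fold change -1.18, adjusted p = 0.00976).

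Of the 164 single rows tested, 150 lay inside a gene of the table, and for 139 of them, in 85 genes, that gene was tested too. The table gives no strand, so containment does not show that the gene is the host. The median log2 fold change was -0.79 for the loci and -0.37 for the 85 genes, and -1.02 and -0.42 without calf 3. The log2(FPKM + 1) scale understates changes of low loci, so sizes of loci and of containing genes are not directly comparable. At 83 of the 139 pairs both values were below 0, at 45 the locus was below 0 and the gene above 0, at 9 both were above 0 and at 2 only the gene was below 0. Without calf 3 these counts were 85, 43, 10 and 1. Across these pairs Pearson's r was 0.25 and Spearman's rho 0.24, against 0.098 and 0.14 without calf 3, as a description over loci that share libraries and in part the same gene.

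**Figure D4:**
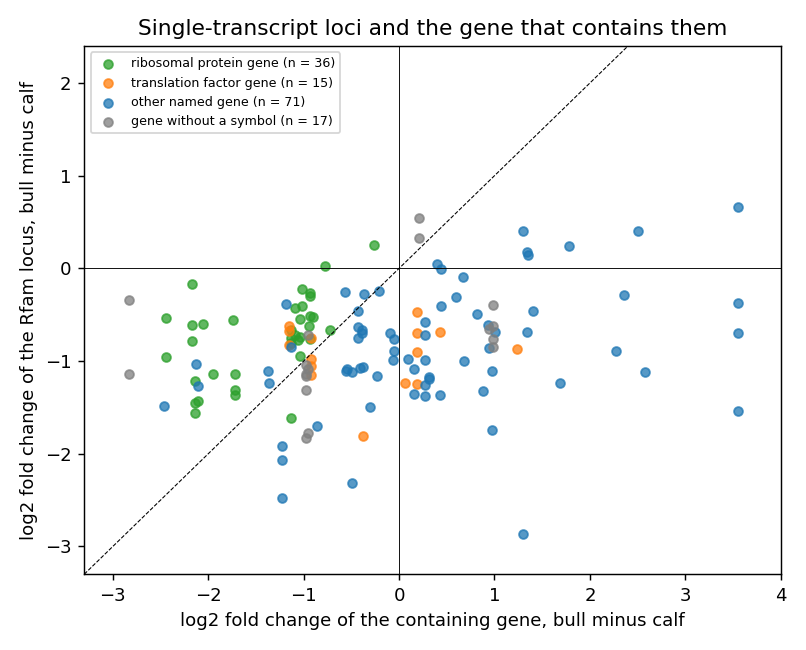
Log2 fold change of 139 single-row loci (vertical axis) against that of the gene that contains them (horizontal axis), both bull minus calf from the same fit. Colours give the kind of gene and the dashed line marks equal change, and 45 loci lie below 0 under a gene above 0.

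In ribosomal protein genes, 7 of 36 tested loci (19.4%) were called lower and 0 higher, beside 9.61% of all genes called lower, and without calf 3 the count was 14 (38.9%, beside 13.6%). The median log2 fold change of these loci was -0.69, and -0.86 without calf 3. Of the 19 ribosomal protein genes themselves 5 were called lower with all libraries and 19 without calf 3, and their median went from -1.09 to -1.98. In RPS12, SNORD101 (RF00186), RF00609 and SNORA33 (RF00438) had log2 fold changes of -1.56 to -1.22, and 2 of the 3 were called with all libraries and all 3 without calf 3. RPS12 itself was at 2181, 2473 and 280 FPKM in calves and 278, 244 and 259 in bulls, with calf 3 close to the bulls (log2 fold change -2.14, adjusted p = 0.0812, and -3.15 without calf 3, adjusted p = 4.73e-06). In genes of translation factors, 5 of 15 loci (33.3%) were called lower, and 9 (60%) without calf 3, beside 9.61% and 13.6% of all genes. Of the 7 genes themselves 0 were called lower and 1 higher (1 and 1 without calf 3).

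At 41 of the 139 pairs the locus was called lower, beside 9.61% of all genes, with the containing gene called lower at 11 and higher at 2. Without calf 3 the locus was called lower at 72 pairs, beside 13.6% of all genes, with the containing gene called lower at 37 and higher at 9. The 2 with all libraries were the SNORA73 locus called lower in PHACTR4 (ENSBTAG00000051053), described above, and SNORA72 (RF00139, ENSBTAG00000054430) in PDE7A, a phosphodiesterase gene. SNORA72 was at 2.14, 2.78 and 1.94 FPKM in calves and 0.330, 0.413 and 0.821 in bulls (log2 fold change -1.12, adjusted p = 0.00255, and -1.19 without calf 3), while PDE7A was at 2.93 to 4.53 FPKM in calves and 23.7 to 30.1 in bulls (log2 fold change 2.58, and 2.73 without calf 3). In MAGED2, both went down: SNORA11 (RF00614, ENSBTAG00000042654) was at 1.66, 1.88 and 2.78 FPKM in calves and 0.216, 0.0968 and 0 in bulls, and MAGED2 fell from 33.5 to 56.1 FPKM in calves to 6.83 to 7.67 in bulls, and without calf 3 both were called lower too. The SNORA72 and SNORA11 loci passed the filter through the calves alone.

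The 8 highest rises among loci called higher were all merged rows, so their levels belong to long assembled transcripts at the locus. The row of SNORD42 (RF00150, ENSBTAG00000047335) was at 0, 0.00698 and 0 FPKM in calves and 2.99, 5.22 and 5.43 in bulls (log2 fold change 2.44, adjusted p = 0.000199), and its annotated transcript was listed at 0 throughout. RF02271 (ENSBTAG00000051844) was listed at 0 in every calf and at 1.29, 6.10 and 8.12 FPKM in bulls. The SNORD42 and RF02271 rows passed the filter through the bulls alone. SNORA71 (RF00056, ENSBTAG00000042678) was at 4.63, 5.01 and 4.67 FPKM in calves and 22.2, 17.6 and 24.5 in bulls, with 0.388% of the level in the annotated transcript. The other 5 (SNORA61, RF01877, a row of U2-19 in PKIG, a second SCARNA17 row in GSTCD and SNORA50) rose by log2 fold changes of 1.39 to 2.27, and all 8 were called higher without calf 3 as well. Among those 5, the SNORA61, RF01877 and SCARNA17 rows also passed the filter through the bulls alone. The calls of rows that passed in this way are not independent of the filter.

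Of the elements of long non-coding RNAs, 19 of 170 passed the filter, with 4 called lower (21.1%) and 2 higher (10.5%), beside 9.61% and 35.7% of all genes, and 7 lower (36.8%) and 5 higher (26.3%) without calf 3, beside 13.6% and 37.9%. The highest was RF01871 (ENSBTAG00000048699), the Rfam element of MALAT1, a nuclear RNA of splicing speckles, at chr29:43675284-43675387. It was at 746, 1162 and 4796 FPKM in calves and 126, 213 and 220 in bulls, and the annotated transcript held 99.7% of this merged row. Its log2 fold change was -3.15 ± 0.74 (adjusted p = 0.0123) with all libraries and -2.36 (adjusted p = 0.000619) without calf 3. In calf 3 this locus alone held 51.1% of the summed FPKM of the 1008 loci, against 2.49% to 5.499% in the other libraries.

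About 3 kilobases away, RF01684 (ENSBTAG00000049408, chr29:43678568-43678624), the tRNA-like RNA at the end of MALAT1, followed the same order. It was at 3.15, 3.20 and 11.5 FPKM in calves and 0.591, 0.121 and 0.432 in bulls (log2 fold change -2.14 ± 0.47, adjusted p = 0.00923, and -1.61 without calf 3). RF01684 passed the filter through the calves alone, so its call is not independent of the filter. RF02216 (ENSBTAG00000052648, chr13:77375979-77376070), the element of the snoRNA host gene ZFAS1, was at 324, 234 and 395 FPKM in calves and 83.4, 96.6 and 91.4 in bulls, which was called lower (log2 fold change -1.77 ± 0.25, adjusted p = 0.00141, and -1.597 without calf 3). Calf 3 was the highest library at all 3 of these elements. RF01891 (ENSBTAG00000052781) had the same level in both groups within its spread, 15.03 ± 0.164 FPKM in calves and 15.2 ± 2.76 in bulls (SD, n = 3 each), in a merged row with 0.247% of the level in the annotated transcript.

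Near the imprinted genes DLK1 and MEG8, of which 1 parental copy is active, the loci had lower summed levels in bulls. There, 46 loci lie between chr21:65715333 and 65894282, and they summed to 41.4, 22.4 and 52.8 FPKM in calves and 0.699, 1.15 and 1.69 in bulls. Over the annotated transcripts alone the calf sums were 40.1, 17.7 and 26.0 FPKM, so that calf 3 was highest only with the longer transcripts of merged rows. The 40 loci of SNORD113 and SNORD114 (RF00181) summed to 28.6, 10.2 and 22.3 FPKM in calves and 0.597, 1.02 and 1.20 in bulls, but only 1 was tested. That locus (ENSBTAG00000043179, chr21:65863035-65863107) was at 3.49, 2.39 and 2.92 FPKM in calves and listed at 0 in every bull, and it was called lower with and without calf 3 (adjusted p = 8.07e-05 and 7.82e-05). The MEG8 element RF02146 (ENSBTAG00000054908) was at 10.5, 6.53 and 5.17 FPKM in calves and 0.0550, 0.0726 and 0.420 in bulls (log2 fold change -2.79 ± 0.28, adjusted p = 0.000345, and -2.99 without calf 3). Both of these loci passed the filter through the calves alone, so their calls are not independent of it.

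The rows of both elements of H19, an imprinted RNA of fetal tissues, were high in calf 1 and calf 2 and listed at 0 in calf 3. RF01973 (ENSBTAG00000048650, chr29:49511055-49511121) was at 31.8, 20.04 and 0 FPKM in calves and 0.812, 1.15 and 1.55 in bulls. The row of RF01972 (ENSBTAG00000051059) was at 52.9, 36.4 and 0 in calves and 0.793, 1.31 and 2.79 in bulls, but it was a merged row whose annotated element reached only 0.105 and 0.134 FPKM in calf 1 and calf 2 and 0.0880 to 0.117 in bulls. The 2 rows were called lower only without calf 3 (log2 fold changes -3.61 and -4.16, adjusted p = 4.44e-05 and 9.24e-05), whereas with it the adjusted p was 0.232 and 0.241. The 7 elements beside WT1, the gene of a Sertoli cell transcription factor, had the same order, summing to 19.4 and 18.7 FPKM in calf 1 and calf 2, 0.0330 in calf 3 and 3.06 to 5.05 in bulls with the longer transcripts of merged rows. Their annotated transcripts alone summed to 12.02 and 13.3, 0.0307 and 1.76 to 3.16 FPKM.

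A further set of loci was high in calf 3 alone or nearly so, in the library with the high glia and neuron markers; the part of those cells in these levels was not tested. RF01953 (ENSBTAG00000052407, chr1:85316188-85316464) was at 80.3 FPKM in calf 3 and at 0 to 0.206 in the other 5 libraries. The rows of the 6 elements at SIX3, a transcription factor gene of the forebrain, summed to 15.4 FPKM in calf 3 and to 0 to 0.412 elsewhere, of which the annotated transcripts held 3.27 in calf 3 and 0 to 0.368 elsewhere. A SNORA70 locus in CERCAM (RF00156, ENSBTAG00000044796) was at 22.6 FPKM in calf 3 and 0.125 to 0.728 elsewhere.

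SNORD116, a brain-expressed family of the Prader-Willi region, was also highest in calf 3. Its 15 loci (RF00108) summed to 1.89, 0.968 and 21.4 FPKM in calves and 1.19, 1.22 and 2.21 in bulls, and the highest one (ENSBTAG00000044769) was at 0.848, 0 and 8.36 in calves and 0.268, 0.0722 and 1.01 in bulls. The 6 SNORD115 loci (RF00105) summed to 5.10 FPKM in calf 3 and 0.342 to 1.21 elsewhere, and the highest by mean (ENSBTAG00000048713) was at 0.232 to 1.07 in calves and 0.302 to 0.864 in bulls. No locus of either family passed the filter.

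Some loci were high in calf 3 and in bulls. RF01967 (ENSBTAG00000054026, chr5:61741537-61741738) was at 0.0280 and 0.145 FPKM in calf 1 and calf 2, 23.2 in calf 3 and 8.98, 13.4 and 10.3 in bulls, and was the 1 single row called higher in bulls without calf 3 (log2 fold change 3.44, adjusted p = 2.1e-05). RF01956 (ENSBTAG00000049968, chr29:43613547-43613673), near FRMD8, was at 127 FPKM in calf 3, at 15.9 and 15.05 in bull 1 and bull 2, and below 0.1 in the other 3 libraries, so the bulls disagreed among themselves. In the other direction, SNORD50 (RF00278, ENSBTAG00000043468) was at 59.6 and 58.0 FPKM in calf 1 and calf 2, 1.15 in calf 3 and 53.9, 21.3 and 16.6 in bulls. RF01848 (ENSBTAG00000048483), a further model of U3, was at 26.5 and 131 FPKM in calf 1 and calf 2, 1.31 in calf 3 and 11.1, 10.7 and 23.7 in bulls, and was called lower only without calf 3 (log2 fold change -1.99, adjusted p = 0.036).

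**Figure D5:**
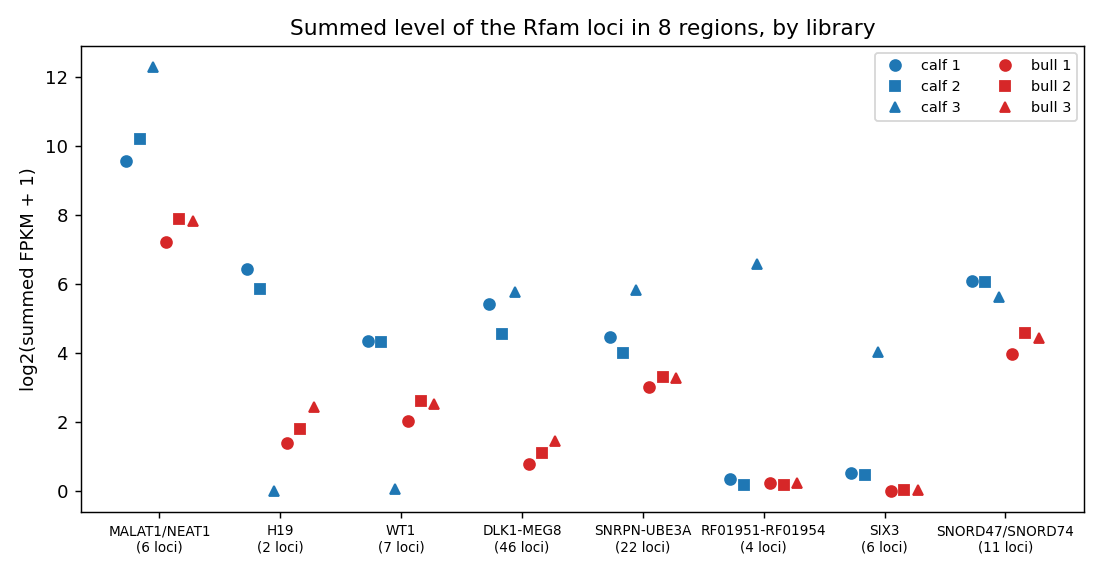
Summed FPKM of the rows of the Rfam loci, longer transcripts of merged rows included, in 8 regions on a log2(sum + 1) scale (vertical axis), one symbol per library, with the number of loci under each region. Blue symbols are calves and red ones bulls, and calf 3 (blue triangles) is the lowest library at H19 and WT1 and far above the others at RF01951 to RF01954 and SIX3.

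The place of calf 3 went with the length of the locus, and likewise with its level and class. Among the 17 tested single rows of 200 bases or more, calf 3 was below all bulls at 11 and its median log2 difference from calf 1 and calf 2 was -2.59. Among the 147 shorter ones it was below all bulls at 24, and the median difference was -0.41. Of the long loci 4 were called lower with all libraries and 13 without calf 3, and of the short ones 47 and 72. Of all genes tested, 9.61% were called lower with all libraries and 13.6% without calf 3. The median difference was also -2.53 at the 16 single rows with a mean FPKM of 50 or more against -0.41 at the other 148, and -2.66 at the 8 single scaRNA rows, and these splits overlap, so length, level and class were not separated. The share of single rows tested differed between lengths without a steady trend. It was 52 of 177 at 37 to 79 bases, 31 of 171 at 80 to 109 and 59 of 371 at 110 to 149. At 150 to 198 bases it was 5 of 64, and at 200 to 465 it was 17 of 64. Length and class were not separated here either.

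Few protein genes of these particles were called lower in bulls. Of 39 genes that encode core proteins of snoRNA particles, assembly factors, Cajal body proteins, trimming enzymes and proteins of the U3 particle, 36 were found and tested, with 7 called higher in bulls and 1 lower, beside 35.7% and 9.61% of all genes. Their median log2 fold change was 0.00 with all libraries and -0.22 without calf 3. Among the 8 core proteins 1 was called, SNU13, which binds the kink of box C/D snoRNAs, with 37.6, 40.9 and 30.1 FPKM in calves and 17.3, 14.97 and 16.5 in bulls (log2 fold change -1.10 ± 0.17, adjusted p = 0.00213). The methyltransferase FBL was at 49.2, 51.9 and 8.71 FPKM in calves and 27.7, 25.5 and 30.7 in bulls, with calf 3 below all bulls (log2 fold change -0.03, adjusted p = 0.971). Without calf 3 it was -0.84 (adjusted p = 0.000774), short of the size needed for a call, and the median of the 8 core proteins went from -0.37 to -0.85, with SNU13 the 1 called. NOP56, NOP58, DKC1, NHP2 and NOP10 also missed a call there by size alone. Their log2 fold changes were -0.87, -0.88, -0.97, -0.48 and -0.46 (adjusted p = 0.000581, 0.000938, 0.000382, 0.0198 and 0.0366). GAR1 went the other way, at 0.41 (adjusted p = 0.0781).

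The genes that rose were assembly factors and Cajal body or trimming genes. COIL, the scaffold protein of the Cajal body, was at 10.9, 11.6 and 7.13 FPKM in calves and 254, 226 and 207 in bulls (log2 fold change 4.42 ± 0.22, adjusted p = 2.42e-05). RUVBL1, an ATPase of particle assembly, rose with a log2 fold change of 3.101 and NUFIP1, an assembly adaptor, of 2.83, while TENT4B, which adenylates snoRNA ends, rose by 2.501. SHQ1, RUVBL2 and PIH1D1 were the other 3 called higher, and all 7 were called without calf 3 as well. The lowest after SNU13 were ZNHIT3, WDR43 and UTP15, with log2 fold changes of -0.85, -0.70 and -0.65, which did not reach the size or the p needed for a call with all libraries. Without calf 3, WDR43, a protein of the U3 particle, was called lower (log2 fold change -1.01, adjusted p = 0.000318).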

How the data were processed

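The authors depleted ribosomal RNA, built strand-specific libraries, mapped reads with TopHat2 and assembled transcripts with StringTie. They deposited FPKM values per gene and per transcript, with no counts, so depth is unknown. The tool behind the FPKM values, and whether strand was used, are not given in the sources used here. Positions are those of the deposited tables, whose scaffold names belong to an ARS-UCD assembly although the paper names UMD 3.1.1. Of 638 loci that overlap a small RNA entry of RefSeq (ARS-UCD2.0), 626 matched it at both ends within 10 bases.

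Members, lists and regions were chosen with earlier results of these data known, and the 8 regions plotted and the split at 200 bases after their values were seen. Classes came from general knowledge of Rfam families, since RefSeq gives these loci a biotype but no family name or strand.

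R 4.3.3 with limma 3.58.1 fitted bull minus calf on log2(FPKM + 1), with an empirical Bayes trend and Benjamini-Hochberg adjustment over all features. Fold changes on this scale understate those of low loci. The libraries are from separate animals. On simulated data, 50 of 100 genes with a log2 fold change of 2 and 90 of 100 with 4 were recovered, with 6 unchanged genes called among 18115. For transcripts these were 59 and 84 of 100, with 4 unchanged ones called among 23212. Single sums used an exact permutation test in scipy 1.17.1. Python 3.11.15 with matplotlib 3.10.9 made the plots.

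Loci were named by rule: the 8 highest and 8 lowest fold changes among loci called with and without calf 3 and without overlap, the 8 highest means, the highest locus of known families, the 4 highest and 4 lowest in calf 3 against the other calves, the 5 highest without a snoRNA class, and the 4 highest and 4 lowest genes of the particle list. Other loci named with values were chosen after their values were seen. Alternatives were a pseudocount of 0.1, no filter, an FPKM of 5, quantile normalization, rescaling to genes without Rfam names, the replicate number as a block, no trend, each library left out, and the annotated transcript in place of the row, the last chosen after seeing the data. A marker gene and the loci of a containing gene are not reported here by name, and that marker is left out of its list's sum.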

Additional observations from a re-analysis of the deposited data

How the results depend on the processing

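Without counts, no interval could be given for a single level, and loci near 0 were not testable. No setting turned the summed FPKM around. The counts moved with scaling, filter and calf 3. Quantile normalization gave 156 loci lower and 4 higher, beside 4538 and 3827 of 18115 genes, with the median of all genes at -0.26 in place of 0.43. The rescaling to genes without Rfam names gave 87 lower and 8 higher, beside 2689 and 5434 of 17842 genes, and a median of all genes of 0.10. The filter at an FPKM of 5 tested fewer loci (53) and gave 21 lower and 3 higher, beside 1028 and 4028 of 10883 genes. The annotated transcripts gave 1 higher, beside 34.8% of all transcripts. Leaving out 1 library gave 41 to 101 loci lower, with 101 without calf 3 and 41 without bull 1, and 12 to 16 higher. Of 18115 genes, 1218 to 2466 were then called lower and 6034 to 6859 higher.

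By class, box C/D snoRNAs had 85 lower under quantile normalization, 9 lower and 1 higher at the FPKM of 5, and 20 to 53 lower with 1 library left out. Box H/ACA snoRNAs had 58 lower and 2 higher under quantile normalization, 36 lower and 3 higher after rescaling, 5 lower and 2 higher at the FPKM of 5, 9 higher with no filter, and 17 to 32 lower with 1 library left out. scaRNAs had 1 lower with no filter, 0 higher at the FPKM of 5, after quantile normalization and after rescaling, and 0 to 8 lower with 1 library left out. Long non-coding RNA elements had 0 higher at the FPKM of 5 and after quantile normalization, and 2 to 5 higher and 3 to 7 lower with 1 library left out. Loci without a class had 2 lower with the pseudocount of 0.1, 3 lower and 0 higher under quantile normalization, 0 higher at the FPKM of 5 and 1 higher after rescaling, and 1 to 2 higher with 1 library left out. The particle genes had 2 lower with the pseudocount of 0.1, 10 lower and 4 higher under quantile normalization, 3 lower after rescaling, and 1 to 2 lower with 1 library left out. For all genes, the counts under these settings are given above. With the pseudocount of 0.1, 2207 of 18115 genes were called lower and 6702 higher. The cause of these moves in the counts was not tested.

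Same-numbered calf and bull libraries did not deviate together (r = 0.028, 0.025 and 0.034), so the numbers were not read as pairs. The replicate block gave 55 loci lower and 14 higher, beside 1691 and 6437 of 18115 genes, and 1 scaRNA lower.

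The sign changed for 5 of the loci named by rule, none of them called with all libraries, although RF01848 was called lower without calf 3. Quantile normalization gave log2 fold changes of -0.28 for RF00278, -0.11 for RF00096 and -0.41 for RF01956. With 1 library left out, RF00278 ran from -1.10 to 1.304, RF01848 from -1.99 to 0.93 and RF01891 reached 0.01 and 0.14, and RF01956 ran from -0.83 to 2.62 (-0.82, -0.35 and -0.31 in between).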
